A study of Mus musculus with 12 samples.

Results

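The genes described here are 37 immediate early and activity-response genes, chosen by gene symbol from a list of genes known to respond to neuronal activity, out of 54532 genes in the deposited tables. All 37 were found, and their values were the FPKM of each annotated transcript summed per gene. Hippocampal total RNA was sequenced from 12 libraries of 3-month-old mice, with 3 libraries for each genotype (control or Atrx-cKO) in each sex, which makes 4 groups. Atrx encodes a chromatin remodeller, cKO stands for conditional knockout, and the series title places the deletion in neurons. For the Cre driver, the floxed allele and the genetic background no source used here gives details, and whether the controls carry Cre or the floxed allele are not stated in the labels. The labels name no stimulus, behavioural task or time of day for any library, so the values are levels in tissue as collected. The design text speaks of pairs of mice, but neither it nor the labels say which library belongs to which pair.

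Immediate early genes are transcribed within minutes of synaptic activity without new protein synthesis, through transcription factors such as CREB and SRF that are already bound or made ready by calcium and MAP kinase signalling. The first products are largely transcription factors (the AP-1, EGR and NR4A families and Npas4), which drive a later set of effectors. Effectors include synaptic and secreted proteins such as Arc and Nptx2, and phosphatases and kinases that switch the signal off again. In the hippocampus these genes are widely used as marks of recently active neurons and are needed for lasting synaptic change.

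The members share a compact gene structure that their choice did not use. Their median span in the genome was 5617 bp and their median maximum exon number 4, beside 26463.5 bp and 9 exons for the 10916 protein-coding genes tested. A span under 10 kb was found for 24 of 37 members (64.9%) and for 23.4% of those protein-coding genes. Promoters from the RefSeq table (GRCm38.p6, 250 bases before to 50 after each start) were found for 29 of the 37. The core of the cAMP response element (CRE, the site bound by CREB), TGACG on either strand, was present in 20 of those 29 (69.0%), in 23.0% of 27025 genes with a promoter in the table and in 36.4% of the 8860 of them that were tested here. The full element TGACGTCA, which holds the core on both strands, was present for Btg2, Dusp1, Maff and Plk2 (13.8% of members, 2.03% of all genes, 3.67% of genes tested). The CArG box, the SRF site, was found for Egr2 and Dusp5 (6.9% of members, 1.81% of all genes, 1.67% of genes tested), the TATA box TATAAA for Fos, Junb, Nr4a2, Inhba, Gadd45b and Gadd45g (20.7%, 15.7% and 8.7%), the AP-1 site TGACTCA or TGAGTCA for Csrnp1 (3.45%, 5.95% and 3.89%) and the EGR site GCGTGGGCG for Maff (3.45%, 0.707% and 1.35%). All motifs were searched on both strands; a match is a description of letters, not of a bound site.

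The 150 bases directly before the RefSeq start are shown for 6 members: Fos, Junb, Egr2, Egr4 and Nr4a1, which were more than 2-fold higher in control male 2 than in the other control males (below) and whose stretch overlaps no annotated exon, and Plk2, the most abundant member and the one with the smallest p between control males and females. The choice was made after their values were seen. Capitals mark each CRE core on either strand (TGACG or, on the other strand, CGTCA) and, in Plk2, the full element; sequences run 5′ to 3′ on the gene's strand.
Fos, chr12:85473740-85473889, plus strand: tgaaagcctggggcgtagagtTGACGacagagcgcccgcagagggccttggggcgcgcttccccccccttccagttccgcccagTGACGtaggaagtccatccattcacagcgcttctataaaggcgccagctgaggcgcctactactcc
Junb, chr8:84978749-84978898, minus strand: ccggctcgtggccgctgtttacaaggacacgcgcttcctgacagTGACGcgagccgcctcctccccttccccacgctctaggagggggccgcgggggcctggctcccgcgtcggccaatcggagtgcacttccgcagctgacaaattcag
Egr2, chr10:67537719-67537868, plus strand: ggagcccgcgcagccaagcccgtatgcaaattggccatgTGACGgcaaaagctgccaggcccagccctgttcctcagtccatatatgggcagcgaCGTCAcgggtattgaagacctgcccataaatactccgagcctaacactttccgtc
Egr4, chr6:85513590-85513739, minus strand: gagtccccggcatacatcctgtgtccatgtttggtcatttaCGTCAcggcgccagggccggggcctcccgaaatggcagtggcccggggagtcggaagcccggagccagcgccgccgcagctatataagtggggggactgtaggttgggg
Nr4a1, chr15:101266696-101266845, plus strand: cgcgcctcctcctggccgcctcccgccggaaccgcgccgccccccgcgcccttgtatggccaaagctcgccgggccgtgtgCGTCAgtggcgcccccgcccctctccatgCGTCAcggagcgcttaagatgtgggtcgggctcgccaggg
Plk2, chr13:110394894-110395043, plus strand: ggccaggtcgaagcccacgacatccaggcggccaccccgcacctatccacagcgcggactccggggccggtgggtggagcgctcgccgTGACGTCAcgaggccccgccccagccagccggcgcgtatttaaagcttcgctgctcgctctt

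Depth, estimated from the ratio of coverage to FPKM, ran from 1.16 to 8.64 Gb of mapped bases, and was 1.16 and 2.86 Gb in cKO females 2 and 3. A uniform background, read as the median FPKM over 1459 olfactory and vomeronasal receptor genes that the hippocampus is not known to use widely, was 1.97 and 2.25 FPKM in those 2 libraries and between 0.00664 and 0.602 in the other 10. Atrx, the targeted gene on chromosome X, ran from 31.0 to 38.2 FPKM in cKO females against 55.6 to 63.6 in control females, and from 32.3 to 36.5 in cKO males against 40.2 to 46.9 in control males. Every cKO library was below every control library of its sex. None of the 9 hippocampal neuron markers, among them Prox1 and Wfs1, was at 0 in any library after the background was subtracted. Tests used background-subtracted, scaled FPKM on the scale log2(value + 0.5); of 15055 genes that passed the filter on low values, 26 were members.

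On the background-subtracted scale, which is per base of exon and so allows genes to be ranked, Plk2 was the highest member with a mean of 62.3 FPKM over the 12 libraries. Plk2 is an activity-induced kinase that tunes down strong synapses. Arc followed at 23.2, then the AP-1 subunits Jund at 18.8 and Jun at 15.6, the nuclear receptor Nr4a2 at 10.7 and the ERK phosphatase Dusp6 at 10.6. The first-line transcription factors that are best known as activity marks were far lower: 4.42 for Junb, 4.19 for Egr1, 3.67 for Fos, 1.15 for Egr2 and 0.738 for Npas4. The lowest member that could be tested was Plk3, another polo-like kinase, at 1.13. A single transcript held 80.8% of Fos and 62.7% of Arc FPKM on average, but only 40.8% of Nr4a2 and 40.8% of Per1. The 2 Arc transcripts have nearly the same length (3055 and 3054 bases), and the leading Nr4a2 transcript ran from 0 to 16.5 FPKM between libraries. How reads were divided between the transcripts of a gene was not tested. Junb overlaps Prdx2 on the opposite strand, which averaged 93.8 FPKM, and Jun overlaps its antisense gene Junos; whether counting used strand is not given in the sources used here, so Junb and Jun values may hold reads of their neighbours.

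The members' values by library are given first as deposited, before subtraction. Fos, an AP-1 subunit and the classic activity mark, was at 7.46, 6.96 and 6.41 FPKM in the control female libraries, against 4.52, 8.95 and 6.02 in those of cKO females. In males the controls were at 1.95, 8.17 and 3.01 and the cKO libraries at 3.40, 2.63 and 3.67, so control male 2 stood with the females and above every other male. Junb, its partner in AP-1, showed the same outlying library, with 4.32, 8.98 and 4.02 in control males and 4.54, 5.33 and 5.42 in cKO males; females were at 9.55, 8.92 and 7.20 (control) and 7.02, 6.76 and 5.09 (cKO), where the groups did not overlap before subtraction but did after it. Egr1, a zinc finger factor needed for late-phase plasticity, was at 8.46, 5.36 and 5.48 for control females against 6.05, 8.64 and 4.57 for cKO females, and at 2.27, 4.42 and 2.23 for control males against 2.41, 2.50 and 2.63 for cKO males. Every male library of Egr1 was below every female one as deposited. After subtraction control male 2, at 4.22, was above cKO female 3, at 3.62. Arc, which removes AMPA receptors from synapses, was at 28.8, 34.9 and 24.0 for control females against 22.5, 21.9 and 15.4 for cKO females. Arc was at 19.9, 42.6 and 20.4 in control males and 20.2, 15.0 and 22.9 in cKO males. The highest Arc value of all 12 libraries was that of control male 2.

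Npas4, a neuron-restricted factor that responds to calcium entry, was at 2.01, 1.66 and 1.55 FPKM for control females against 1.49, 3.61 and 2.62 for cKO females, and at 0.398, 1.94 and 0.588 for control males against 0.700, 1.09 and 0.909 for cKO males. After the background was subtracted the cKO female values were 0.800, 1.34 and 0. Nr4a1, an orphan nuclear receptor, was at 12.3, 11.3 and 8.52 for control females against 9.63, 14.8 and 11.0 for cKO females, and at 4.32, 8.90 and 3.60 for control males against 5.48, 5.56 and 5.51 for cKO males. Per1, a clock repressor that also carries a CRE core and answers to activity, was at 3.46, 2.57 and 3.87 for control females against 2.70, 3.49 and 3.59 for cKO females, and at 2.80, 3.18 and 1.69 for control males against 2.76, 2.32 and 1.54 for cKO males, with all 4 groups overlapping. Nptx2, a secreted pentraxin that gathers AMPA receptors on interneurons, was at 5.03, 5.16 and 4.69 for control females against 4.66, 3.05 and 3.42 for cKO females, and at 2.13, 2.37 and 1.67 for control males against 2.52, 2.14 and 2.01 for cKO males. Its cKO females lay below its control females, and all males lay below all females as deposited. After subtraction cKO females 2 and 3, at 1.63 and 1.82, lay among the males, which ran from 1.52 to 2.25.

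**Figure D1:**
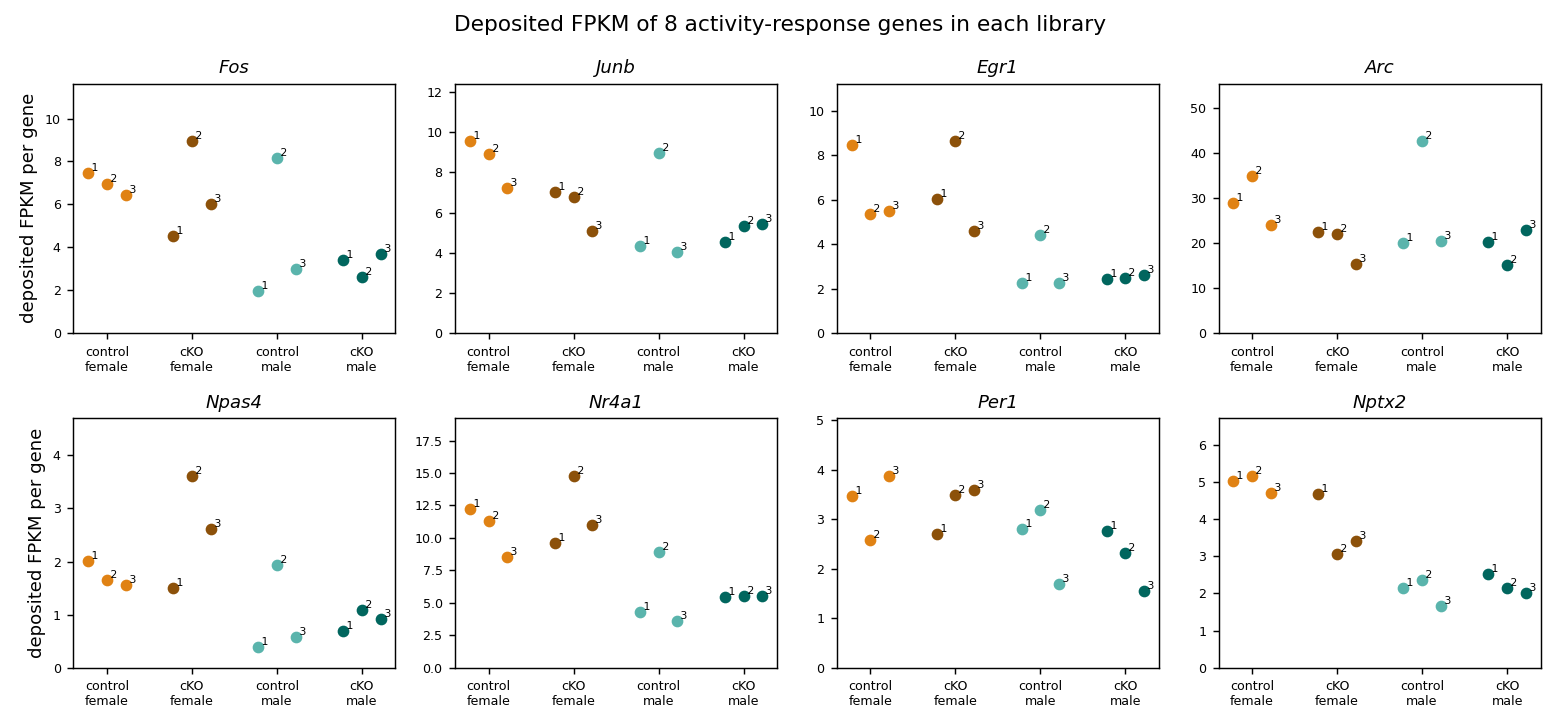
Deposited FPKM per gene (linear axis from 0) for 8 genes, 1 point per library, numbered by replicate within each of the 4 groups. Control male 2 lies above the other males for Fos (8.17), Arc (42.6) and Npas4 (1.94). On this scale, before subtraction, every male lies below every female for Egr1 and Nptx2.

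**Figure D2:**
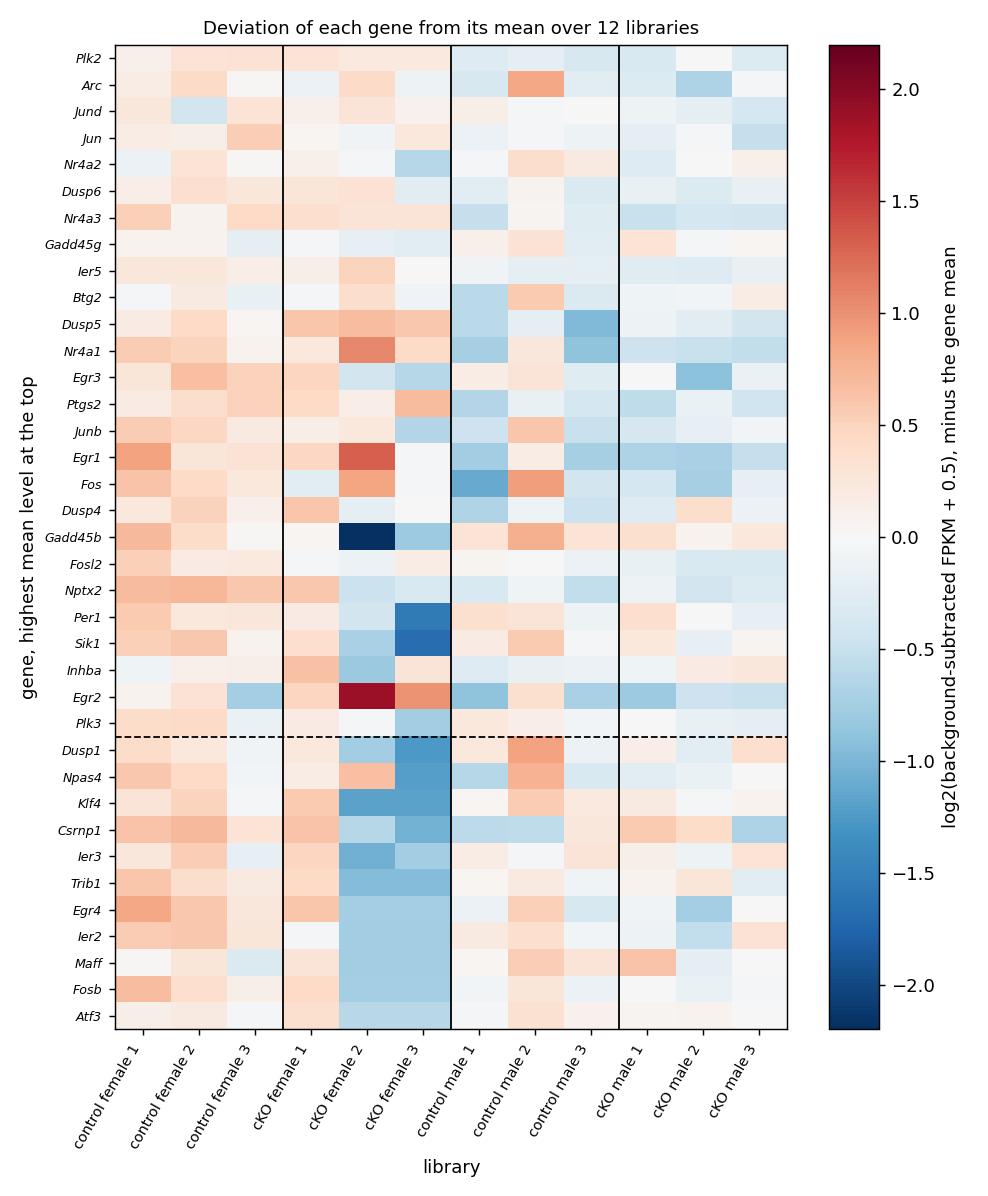
Each of the 37 genes (rows, highest mean at the top) in each of the 12 libraries (columns), as log2(background-subtracted FPKM + 0.5) minus the gene's mean; the dashed line separates the 26 genes tested from the 11 under the filter. The column of control male 2 is red for most rows, and the rows below the dashed line are blue in cKO females 2 and 3, where 8 and 10 of the 11 are at 0, except Npas4 in cKO female 2.

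The first question of the design is whether the loss of Atrx changes these genes in females. No member passed the test in females (limma on log2 values, Benjamini-Hochberg adjusted p under 0.05 over all genes): 0 of 26 were called beside 11 of 15055 genes (0.0731%). Without adjustment 7 members were under 0.05, beside 29.3% of genes. The members' median log2 difference (cKO minus control) was -0.14 and that of all genes 0.02. It was negative for 19 of 26 members, beside 47.9% of genes. The members' median was -0.64 without subtraction (all genes 0.31), -0.61 without scaling (all genes -0.46) and -0.30 with no filter, and it was -0.24 without cKO female 2, -0.067 without cKO female 3 and -0.029 without both. The median 95% interval reached 0.56 to either side of a member's estimate, before any adjustment for the number of genes. Larger estimates, to -1.43 for Gadd45b and 1.23 for Egr2, did not pass the adjusted test either, so changes well above 0.56 could be missed. The intervals use a spread shared by the 4 groups. In the fit with library weights, those of cKO females were the lowest (0.137 to 0.525), so the intervals may be too narrow for females.

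The 3 members of smallest p in females were Nptx2, Gadd45b and Egr2. Nptx2 had a log2 difference of -0.74 (SE 0.25, adjusted p = 0.115), from subtracted values of 4.26, 4.38 and 3.97 for controls against 3.97, 1.63 and 1.82 for cKO females. The cKO female 1 library lay just under the lowest control, and the low values were those of cKO females 2 and 3, the libraries of low depth and high background. Gadd45b, a stress- and activity-induced protein tied to DNA demethylation, had -1.43 (SE 0.48, adjusted p = 0.116), from 4.49, 3.53 and 2.59 for controls against 2.65, 0.0709 and 1.26 for cKO females, and these groups overlapped. Egr2 had 1.23 (SE 0.46, adjusted p = 0.126), from 0.944, 1.20 and 0.321 for controls against 1.41, 4.56 and 2.21 for cKO females, with every cKO library above every control. Over the members tested, groups that did not overlap after subtraction were higher in cKO for 2 (Egr2 and the ERK phosphatase Dusp5) and lower for 3 (Nptx2, Per1 and the AP-1 subunit Fosl2), beside 10.2% and 7.5% of genes. As deposited, over all 37 members, they were higher for 4 (Egr2, Ier3, Klf4, Maff) and lower for 4 (Jun, Junb, Arc, Nptx2). The share of all genes on the deposited scale is not given here. After subtraction Ier3, Klf4 and Maff were at 0 in cKO female 2 and 0.111, 0 and 0 in cKO female 3, below their controls. Egr2 and Nptx2 were without overlap on both scales.

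Calls in females depended on cKO female 1. Without that library, 6 members were called, 5 lower (Nptx2, Sik1, Gadd45b, Per1, Egr3) and 1 higher (Egr2), beside 38.6% of genes; the comparison then rested on cKO females 2 and 3 alone. With library weights, 4 were called, all lower (Gadd45b, Nptx2, Sik1, Per1), beside 23.2% of genes. The part of depth and background in these calls was not tested.

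In males, too, 0 of 26 members were called, beside 1 of 15055 genes (0.00664%), and 0 were under 0.05 without adjustment, beside 2.32% of genes. The median log2 difference was -0.13 for members and 0.03 for all genes. The smallest p values were those of Dusp5, with 0.34 (SE 0.17), Fosl2, with -0.26 (SE 0.14), and Dusp4, another MAP kinase phosphatase, with 0.41 (SE 0.24), each with an adjusted p of 1.0. Dusp5 was at 2.91, 3.92 and 2.11 subtracted FPKM in control and 4.25, 3.84 and 3.41 in cKO males, Dusp4 at 1.76, 2.81 and 2.10 against 2.45, 4.18 and 2.77, and the groups of both overlapped. Fosl2 was at 2.76, 2.65 and 2.39 in control males and 2.30, 1.98 and 1.99 in cKO males, where every cKO library was below every control. In females Fosl2 was at 4.01, 3.08 and 3.14 for controls against 2.59, 2.36 and 3.03 for cKO, again without overlap after subtraction; as deposited, the Fosl2 groups overlapped in both sexes. Groups that did not overlap after subtraction were higher in cKO for 1 member (Inhba, the subunit of activin A), beside 7.4% of genes. They were lower for 2 (Fosl2 and Jund), beside 4.65% of genes. As deposited, Inhba alone was without overlap, and the share of all genes on that scale is not given here. Inhba overlaps B230303A05Rik on the opposite strand (mean 12.5 FPKM), so its values may hold reads of that neighbour.

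**Figure D3:**
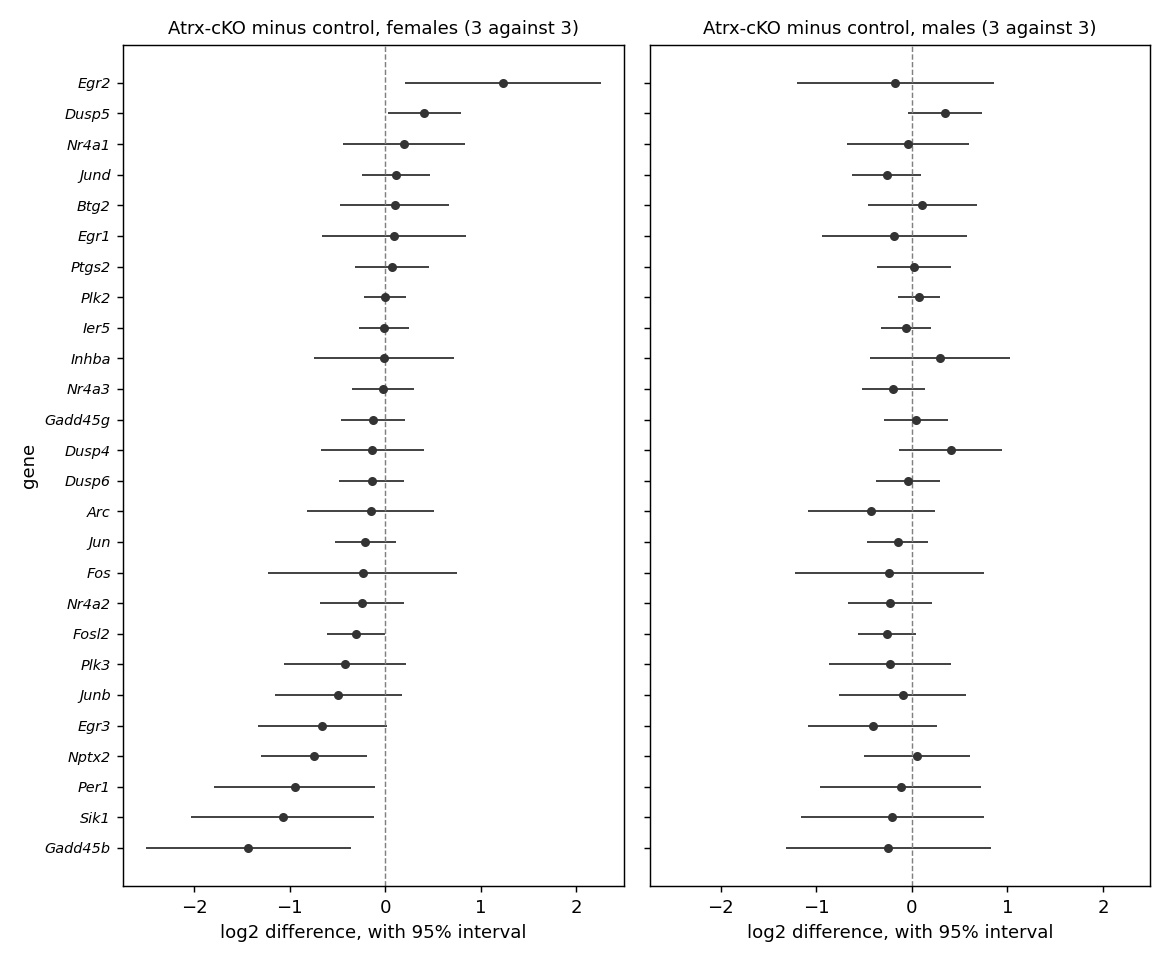
Log2 difference (Atrx-cKO minus control) of the 26 genes tested, with 95% intervals, in females (left) and males (right), 3 libraries against 3. Gadd45b, Sik1, Per1, Nptx2 and Egr2 have the estimates farthest from 0 in females (Gadd45b -1.43, Egr2 1.23) with wide intervals, and no gene passes the adjusted test in either sex.

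The male effect did not differ detectably from the female effect for any member: 0 of 26 passed the test of the difference itself beside 0 of 15055 genes (0.0%), with 1 member (Nptx2) under 0.05 without adjustment, beside 6.24% of genes. Nptx2 had a difference of 0.80 (SE 0.35, 95% interval 0.01 to 1.58, adjusted p = 0.586), Egr2 -1.40 (SE 0.66) and Gadd45b 1.19 (SE 0.68), with the same adjusted p. Averaged over the sexes, 0 members were called beside 5 genes (0.0332%), with 4 members under 0.05 without adjustment, beside 20.3% of genes. Dusp5 had the mean effect of smallest p, 0.38 (SE 0.12, adjusted p = 0.222), then Fosl2 with -0.28 (SE 0.10, adjusted p = 0.222) and Egr3, an EGR factor, with -0.53 (SE 0.21, adjusted p = 0.226). Egr3 was at 5.32, 7.12 and 6.34 subtracted FPKM for control females against 6.24, 3.15 and 2.63 for cKO females, and at 4.92, 5.35 and 3.51 for control males against 4.30, 2.09 and 3.88 for cKO males, and its groups overlapped in both sexes.

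By role, the AP-1 and related factors (5 of 8 tested) had median log2 differences of -0.23 in females and -0.23 in males. The EGR factors (3 of 4) had 0.09 and -0.18, and the NR4A receptors (all 3) -0.03 and -0.19. The other nuclear regulators (5 of 10) had -0.13 and -0.06, the signalling feedback genes (6 of 8) -0.14 and 0.02, and the synaptic and secreted effectors (all 4) -0.08 and 0.04. No group held a called member. The pathway around them did not pass either: 0 of 24 tested genes of upstream signalling (kinases, CREB and SRF with their cofactors, and the EGR corepressors Nab1 and Nab2) were called in females or in males, nor were any of 26 other activity-regulated genes. Mapk3, the kinase ERK1, had the smallest p upstream in females, with 0.39 (SE 0.10, adjusted p = 0.114), then the SRF partner Elk4, with -0.70 (SE 0.20, adjusted p = 0.114). In males these were Nab2, with 0.30 (SE 0.10), and Nab1, with -0.32 (SE 0.12), both with an adjusted p of 1.0. Among the other activity-regulated genes they were Fosl1, with 0.56 (SE 0.18), and Sertad1, with -0.95 (SE 0.38), in females, and Rgs2, with -0.23 (SE 0.09), and Nrn1, with -0.38 (SE 0.20), in males.

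Within the control males, replicate 2 stood apart in these genes, a library singled out after its values were seen. On deposited FPKM, 28 of the 37 members had their highest control male value in this library. Of the 37, 19 (51.4%) were above all 5 other males, beside 4.26% of genes tested. After subtraction and scaling, 20 of 26 tested members had their highest control male value in it, beside 30.4% of genes. On that scale 15 of 26 (57.7%) were above all 5 other males, beside 9.78% of genes. The ratio of control male 2 to the mean of control males 1 and 3 had a median of 1.37 over members and 0.933 over genes tested, and was at least 1.5 for 32.4% of members and 4.88% of genes. These counts describe 1 library and carry no test.

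The ratio was 4.24-fold for Egr2, 3.94-fold for Npas4, 3.30-fold for Fos, 2.92-fold for Egr4, 2.25-fold for Nr4a1, 2.15-fold for Junb, 2.11-fold for Arc, 2.06-fold for Dusp1, 2.04-fold for the antiproliferative factor Btg2 and 1.96-fold for Egr1. All 4 EGR and all 3 NR4A members were above the 5 other males, and so were 2 of 8 AP-1 and related factors (Fos, Junb), 6 of 10 other nuclear regulators (Npas4, Klf4, Per1, Btg2, Ier2, Gadd45b), 3 of 8 feedback genes (Dusp1, Dusp6, Sik1) and 1 of 4 effectors (Arc). Among other AP-1 subunits the ratio was 1.39 for Fosb, 0.981 for Jun, 0.872 for Jund and 0.986 for Fosl2, and after subtraction it was 1.78, 1.05, 0.935 and 1.03. Plk2 and Inhba were at 0.994 and 0.970. Of the other activity-regulated genes, 5 of 30 were above the 5 other males (Nrn1, Bhlhe40, Cyr61, Irs2, Cited2), with a median ratio of 0.969, and the 27 upstream genes had a median ratio of 0.972. Heat shock genes had 2 of 10 (Hspa1a and Hspa1b) with a median of 0.947, glucocorticoid-induced genes 1 of 8 (Cdkn1a) with 0.897, and clock genes 0 of 12 with 0.881. Hippocampal neuron markers had 2 of 9 (Slc17a7, Prox1) with 0.891, microglia markers 2 of 6 with 1.07 and blood markers 3 of 5 with 1.10. The depth of this library, 8.19 Gb, was between those of cKO males 1 and 3 (8.49 and 8.64 Gb) and control males 1 and 3 (7.12 and 7.99 Gb). The part of these marker levels in the pattern was not tested.

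**Figure D4:**
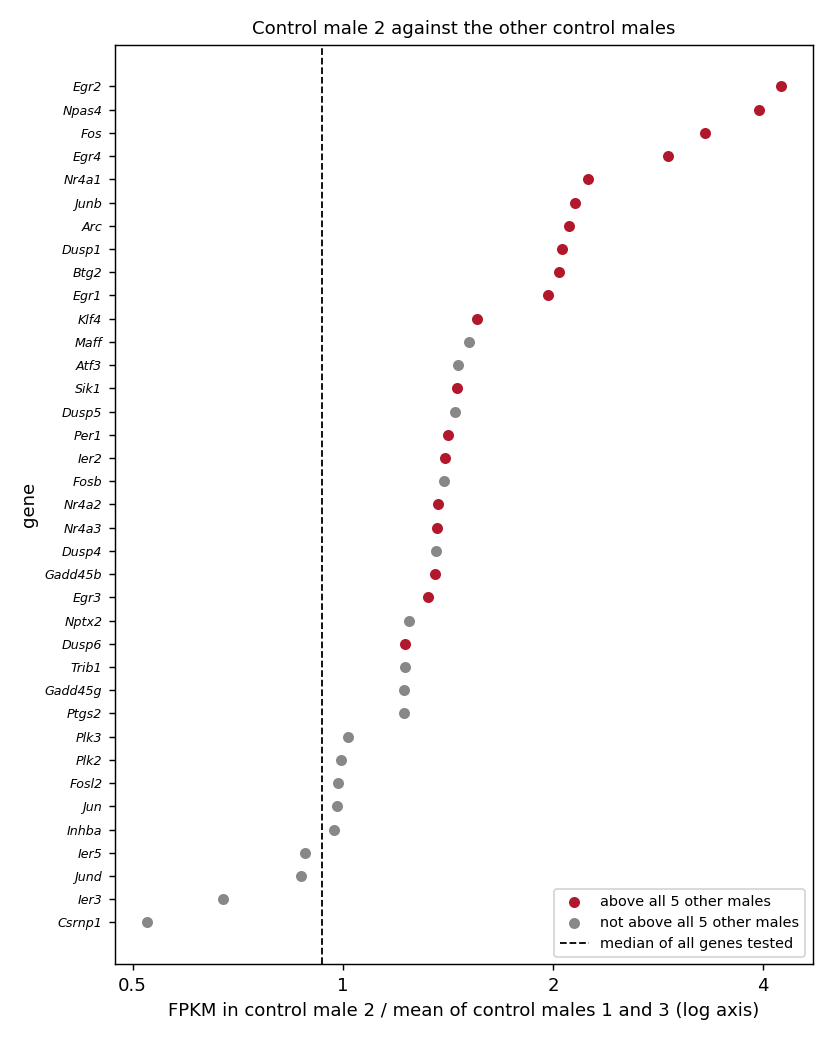
Ratio of deposited FPKM in control male 2 to the mean of control males 1 and 3 (log axis) for each of the 37 genes, red where control male 2 is above all 5 other males; the dashed line is the median of all genes tested, 0.933. Of the 37 genes, 19 are red, and Egr2, Npas4 and Fos are above 3-fold.

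Leaving out control male 2, 1 of the 3 male controls, turned the sign of the members' median and of Fos in the male genotype effect. The members' median log2 difference in males was -0.13 with it and 0.10 without it, while that of all genes was 0.03 and 0.04, and Fos turned from -0.23 to 0.33 (adjusted p = 1.0 in both). No member was called in males with or without it. The residual SD within groups (log2) had a median of 0.32 over the 26 members and 0.25 over all genes, with 16 of 26 members above the latter and 10 below it. It was largest for Gadd45b (0.67), Fos (0.62), Egr2 (0.57) and Sik1 (0.56), a kinase that holds back CREB coactivators, and smallest for Plk2 (0.12).

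The design also allows control males to be set against control females. Here 5 of 26 members were called, all lower in males, beside 780 of 15055 genes called lower (5.18%). They were Plk2, Dusp5, Ptgs2 (cyclooxygenase-2, which makes prostaglandins), Nptx2 and Nr4a3. The median log2 difference was -0.38 over members and -0.07 over all genes, and 23 of 26 members were negative, beside 56.8% of genes. For 12 members there was no overlap, with every male below every female, beside 27.5% of genes.

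Plk2 was at 66.2, 76.0 and 76.7 subtracted FPKM in control females (72.9 ± 5.88, SD, n = 3) and 50.4, 52.7 and 47.9 in control males (50.3 ± 2.35), a log2 difference of -0.53 (SE 0.10, adjusted p = 0.00925, limma). Dusp5 was at 5.32, 6.44 and 4.83 in control females and 2.91, 3.92 and 2.11 in control males (-0.82, SE 0.17, adjusted p = 0.0159, limma). Ptgs2 was at 4.90, 5.75 and 6.24 against 2.54, 3.75 and 3.15 (-0.76, SE 0.18, adjusted p = 0.0211, limma). In all 3 genes the lowest female value exceeded the highest male value. Nptx2 was at 4.26, 4.38 and 3.97 against 1.84, 2.25 and 1.52 (-1.0, SE 0.25, adjusted p = 0.0283, limma), the largest estimate of the 5. Nr4a3 was at 12.4, 8.95 and 11.8 against 5.84, 8.93 and 6.99 (-0.58, SE 0.15, adjusted p = 0.0299, limma), where control male 2 almost equalled control female 2. Ier5 (adjusted p = 0.0589), Nr4a1 and Dusp4 (both 0.0949), Dusp6 (0.103) and Egr1 (0.107) followed without passing, with estimates from -0.94 to -0.39, and Fos had -0.63 (SE 0.45, adjusted p = 0.411).

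**Figure D5:**
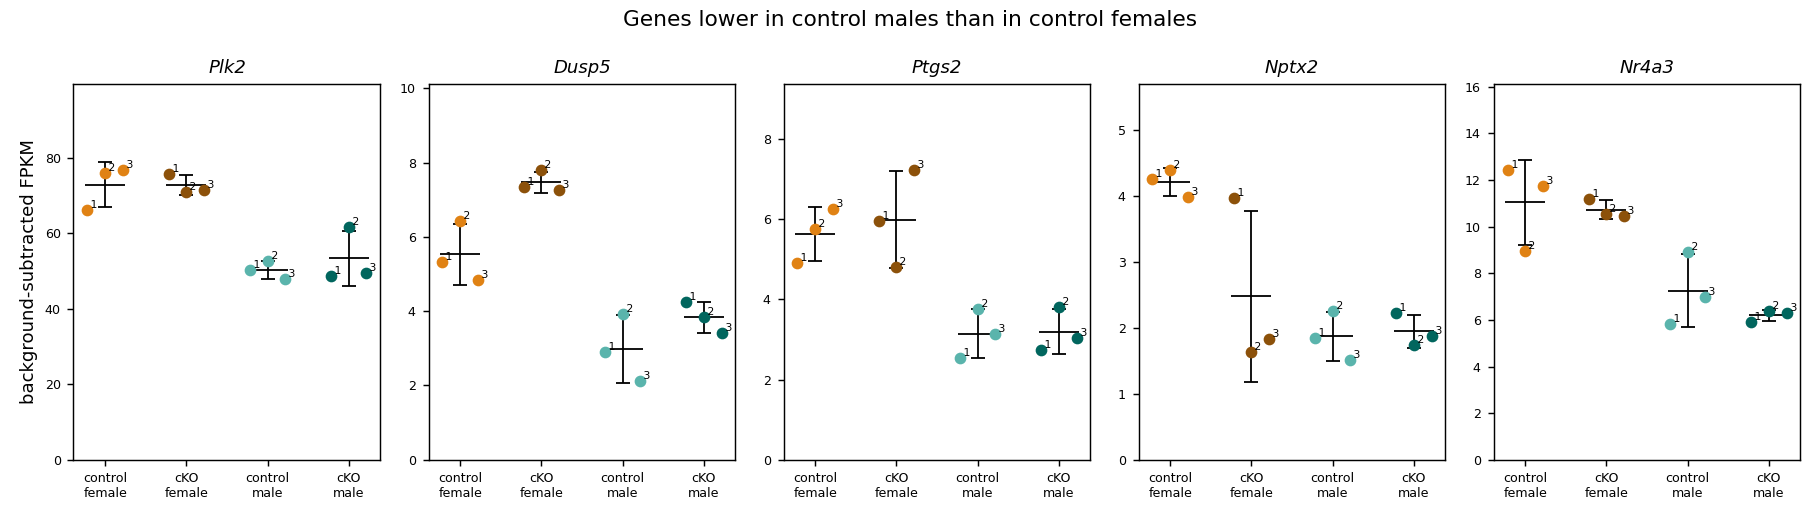
Background-subtracted FPKM (linear axis from 0) of the 5 genes called lower in control males than in control females, 1 numbered point per library, with the mean and SD of each group of 3 as lines. Males lie below females in both genotypes for Plk2, Dusp5, Ptgs2 and Nr4a3, and cKO females 2 and 3 lie at the male level for Nptx2.

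The same contrast within cKO mice, added after the data were seen, uses other libraries, in which sex and library background coincide as well (below). Here 8 members were called, all lower in males, beside 21.8% of genes called lower, and 10 were lower without overlap, beside 22.9% of genes. Nr4a3 (-0.75, SE 0.15), Dusp5 (-0.88, SE 0.17), Ptgs2 (-0.81, SE 0.18) and Plk2 (-0.45, SE 0.10) were called in both genotypes. Ier5, a stress-response cofactor (-0.43, SE 0.12), Egr2 (-1.70, SE 0.46), Nr4a1 (-1.06, SE 0.29) and Egr1 (-1.21, SE 0.34) were called in cKO mice, with adjusted p from 0.00718 to 0.0215 over the 8. Plk2 was at 75.7, 71.0 and 71.5 subtracted FPKM for cKO females against 48.8, 61.7 and 49.6 for cKO males. Dusp5 was at 7.35, 7.79 and 7.25 against 4.25, 3.84 and 3.41, and Ptgs2 at 5.95, 4.81 and 7.22 against 2.73, 3.82 and 3.03. Nr4a3 was at 11.2, 10.5 and 10.5 against 5.91, 6.38 and 6.29, so none of these 4 genes overlapped between the sexes after subtraction. As deposited, Plk2 did overlap, with 143, 89.4 and 84.8 FPKM in cKO females and 91.7, 115 and 87.4 in cKO males. Dusp5, Ptgs2 and Nr4a3 did not overlap on that scale either. Egr2 was at 1.41, 4.56 and 2.21 against 0.286, 0.504 and 0.473. Ier5 was at 6.74, 8.77 and 6.07 subtracted FPKM in cKO females and 5.04, 4.96 and 5.40 in cKO males, without overlap. Nptx2 was not called here (-0.20, SE 0.25, adjusted p = 0.539). These calls depended on the processing, and cKO females 2 and 3 enter all of them. The alternative without subtraction also changed the scaling and the filter. It called 9 members higher and 1 lower in males, beside 66.8% of genes in either direction. With library weights 3 were higher and 5 lower (46.1% of genes), and without scaling 2 higher and 1 lower (36.1%). Quantile normalization gave 1 higher and 5 lower (31.7%). Leaving out cKO females 2 and 3 leaves 1 cKO female, so the calls could not be checked without them. The difference between the genotypes in this contrast is the difference between the sexes in the genotype effect, for which no member passed.

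Other values moved with sex. In controls, the summed subtracted level of the 9 hippocampal neuron markers was 493 to 512 FPKM in females and 395 to 426 in males, with 4 of 9 called lower in males (Wfs1 -0.88, Prox1 -0.57, Gad1 -0.53, Gad2 -0.51). The 6 astrocyte markers summed to 209 to 218 and 314 to 373, with 3 called higher in males (Gfap 0.94, Aldoc 0.74, Aqp4 0.53), and the 6 oligodendrocyte markers to 249 to 340 and 491 to 624, with 2 called higher (Mobp 1.23, Mbp 1.0). Microglia markers summed to 28.9 to 33.9 and 40.7 to 47.0, with 1 of 6 called higher (Aif1 0.79). In cKO mice the neuron marker sums were 496 to 516 in females and 379 to 423 in males, with 7 of 9 called lower. Called higher in cKO males were 3 of 6 astrocyte markers (sums of 213 to 237 in females and 273 to 317 in males), 3 of 6 microglia markers (23.6 to 28.9 and 39.2 to 45.4) and 4 of 6 oligodendrocyte markers (223 to 302 and 361 to 704). None of the neuron, astrocyte or oligodendrocyte markers was at 0 in any library, and their part in the members' difference was not tested. In bulk tissue, fewer cells of a type and less RNA per cell cannot be told apart. Among related lists, 6 of 26 other activity-regulated genes were lower in control males (Sorcs3 -0.86, Bhlhe40 -0.57, Irs2 -0.56, Scg2 -0.38), and among upstream genes Mkl2 (-0.59) and Nab2 (-0.45) were lower and Nab1 was higher (0.61). Heat shock genes had 2 of 9 lower (Hsp90ab1 -0.43, Hsph1 -0.40), clock genes 1 of 12 higher (Nr1d2 0.57), and 0 of 7 glucocorticoid-induced, 6 endothelial and mural, 5 choroid plexus, 4 thalamus and striatum and 5 blood genes were called.

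The background of the control females, 0.0863 to 0.602 FPKM, lay above that of all control males, 0.00664 to 0.0276. In cKO mice it was 0.305 to 2.25 in females and 0.0178 to 0.286 in males, again without overlap. Sex and library background therefore cannot be told apart in either genotype. In the alternative without subtraction, no member was called between control males and females, beside 0.264% of genes. Plk2 changed sign there (0.09) and the members' median went from -0.38 to 0.03 (all genes -0.30). That alternative also changed the scaling, the filter and the length measure, so the part of the subtraction alone was not tested. As deposited, every control male lay below every control female for Plk2 (88.6 to 99.0 against 130 to 149), Dusp5, Ptgs2, Nptx2 and Nr4a3. Without scaling, 0 members were called as well, beside 0.102% of genes. Leaving out 1 control library in turn gave 1 to 5 calls, with the share of genes called in either direction in brackets. It gave 1 without control male 3 (3.56%) and 2 without control female 2 (6.71%), control female 3 (6.18%) or control male 1 (8.26%). It gave 3 without control female 1 (4.95%) and 5 without control male 2 (4.87%), where Nptx2 was not called and Nr4a1 was. Leaving out 1 cKO library gave 5 to 7, beside 9.55% to 18.6% of genes, and Plk2 was among the calls in all 12 cases. Without cKO females 2 and 3, which belong to neither group but enter the filter, the scaling and the shared estimate of the spread, 9 of 25 members tested were called, all lower (Nptx2, Ier5, Plk2, Ptgs2, Dusp5, Dusp6, Nr4a3, Egr1 and Dusp4), beside 11.0% of genes.

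The remaining 11 members were too low to be tested: the transcription factors Fosb, Egr4, Npas4, Klf4, Atf3, Maff and Csrnp1, the early response genes Ier2 and Ier3, the phosphatase Dusp1 and the pseudokinase Trib1. Their mean subtracted level ran from 0.280 FPKM for Atf3 to 0.777 for Dusp1. After subtraction 8 of the 11 were at 0 in cKO female 2 and 10 in cKO female 3, 1 (Egr4) in cKO male 2, and none in the other 9 libraries, so their values in cKO females cannot be compared with the controls. As deposited they lay between 0.572 and 2.33 FPKM in control females and between 0.177 and 2.88 in control males. Egr4 was at 1.33, 0.978 and 1.12 in control females, against 0.334, 0.745 and 0.177 in control males and 0.348, 0.247 and 0.367 in cKO males, with no overlap between females and males as deposited. After subtraction its control females were at 1.01, 0.770 and 0.50 and its control males at 0.268, 0.701 and 0.155, which overlapped. Csrnp1 shares its locus with Cx3cr1 on the same strand, and its values were 0.332, 0.356 and 1.03 in control males and 1.46, 1.48 and 0.248 in cKO males, so each male group held both high and low libraries.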

How the data were processed

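The authors deposited 1 transcript table per library with FPKM values (fragments per unit of transcript length and library size) and the coverage signal, the mean depth over each transcript. Per the submitters' processing notes, HISAT2 2.0.4, StringTie and the build GRCm38.p6 were used; strand use, trimming and the annotation release are not given in the sources used here. RNA was depleted of ribosomal RNA, per the labels' protocols. FPKM was a constant multiple of coverage in each deposited table, which gave mapped bases of 1.16 to 8.64 Gb per library; the tables used here hold no counts, so count tests were not used.

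For the tests, transcript FPKM times length was summed per gene and divided by the exon union length (GENCODE M21, 54495 of 54532 genes matched). The library's background (median of 1459 receptor genes) was subtracted with a floor of 0, libraries were scaled by median ratios over protein-coding genes of mean 5 or more, and the low-value filter asked for a mean of 1 or more with 3 libraries reaching 1. Values were tested as log2(value + 0.5) with limma 3.58.1 (R 4.3.3; trend and robust options), 4 group means in 1 fit, and Benjamini-Hochberg adjusted p under 0.05 over all genes. Members not tested are given as values. The procedure was run on simulated data with the same spread in every library, where the background added was exactly the one subtracted. That run cannot show how the tests behave with unequal spread between libraries or a background that differs between genes.

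The 37 members, their roles and the 13 other lists were chosen with earlier results of these data known. Members named with all values were those called in a comparison, the 3 of smallest p in each, and 8 listed by name; in other lists, up to 4 called genes or the 2 of smallest p. The contrast of the sexes within cKO mice was added, and Csrnp1 and Egr4 were picked, after their values were seen. The p-values measure the spread between libraries, which may be partly technical where libraries do not come from separate mice. Alternatives covered subtraction, pseudocount, filter, scaling, library weights, single-sex fits, a replicate block and libraries left out. The alternative without subtraction also used FPKM summed per gene, scaling over all genes seen in every library, and its own low-value filter. The 13 lists are upstream signalling, other activity-regulated, heat shock, glucocorticoid, clock and 8 sets of cell type or tissue markers; no gene of them was called by genotype in either sex. Of the upstream list, 1 result is not reported here.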

Additional observations from a re-analysis of the deposited data

How the results depend on the processing

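The counts of called members between genotypes were 0 in females, in males, for their difference and for their mean. They moved only with library weights (4, 0, 1 and 3) and with libraries left out. With libraries left out they ran from 0 to 6 in females, 0 to 3 for the difference and 0 to 5 for the mean. Each was highest without cKO female 1, and the cause was not tested. Library weights called 23.2%, 0.106%, 11.5% and 22.9% of all genes in these comparisons. Without cKO female 1 the shares were 38.6% in females, 19.3% for the difference and 29.6% for the mean. A replicate block, which pairs libraries by number, gave 0 called members in females, males, difference and mean; same-numbered libraries correlated from -0.303 to 0.379 in females and from -0.0969 to 0.197 in males, so the numbers were not taken to pair them. Between control males and females the 5 calls became 0 without subtraction and 0 without scaling, 1 with no filter, 3 with a filter at a mean of 5 (9 members left to test), 3 with quantile normalization, 9 with library weights, 9 without cKO females 2 and 3, and 1 to 7 with 1 library left out. Between control sexes, 1.4% of all genes were called with no filter, 31.9% with the filter at 5 and 8.24% with quantile normalization. The share was 33.5% with library weights and 3.56% to 18.6% with 1 library left out. Within cKO mice the 8 calls became 3 with a filter at a mean of 5 (42.0% of genes) and 3 without scaling (36.1%). They were 4 to 11 with 1 library left out, beside 12.9% to 54.5% of genes. Leaving out cKO females 2 and 3 leaves 1 cKO female, so no count is given. Signs turned mostly in the alternative without subtraction, which also changed the scaling and the filter. There they turned for Plk2 between control sexes (0.093) and for the mean effect of Dusp5 (-0.15). Between cKO sexes they turned for Plk2 (1.05), Ier5 (0.72), Dusp5 (0.29), Ptgs2 (0.27), Nr4a3 (0.23) and Nr4a1 (0.064). Signs also turned without scaling for Plk2 (0.021) and Ier5 (0.0022) between cKO sexes. The sign also turned for Fos in males, which ran from -0.69 without control male 1 to 0.33 without control male 2. Dropping the subtraction moved the median of all genes to 0.31 in females and to -0.50 between cKO sexes; dropping the scaling moved these to -0.46 and 0.42. The members' median between cKO sexes (-0.30) became 0.29 and 0.14 under these changes. Depth of 1.16 and 2.86 Gb with backgrounds near 2 FPKM limits what cKO females 2 and 3 can show for members under that level.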
